A study of Caenorhabditis elegans with 16 samples.

Results

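The comparison set the 8 libraries of Caenorhabditis elegans larvae that carry daf-2(e1370) against the 8 that do not, with the state of a second pair of genes, irld-39 and irld-52, as a term in the model. The libraries were chosen by their genotype labels alone, and together they are all 16 libraries of the study. The libraries without daf-2(e1370) were 4 of the wild-type strain N2 and 4 of LRB444, called the irld mutant here, with the alleles irld-39(duk1) and irld-52(duk17). Those with it were 4 of CB1370, which carries daf-2(e1370) alone (the daf-2 mutant), and 4 with all 3 alleles (the triple mutant), made up of 2 libraries each from the independent lines LRB457 and LRB458. Each library was poly(A)-selected RNA of 10000 whole L1 larvae, the stage that hatches from the egg. Embryos of fed adults hatched in buffer without food at 20 °C, and larvae were taken 24 hours after embryo isolation, 12 hours after hatch, so every group was starved. Every genotype but the triple mutant is 1 strain, and an effect of daf-2(e1370) cannot be told apart from other differences that CB1370, LRB457 and LRB458 share against N2 and LRB444.

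DAF-2 is the worm's receptor for insulin-like peptides. When a peptide binds, DAF-2 starts a relay of kinases (AGE-1, PDK-1, AKT-1 and AKT-2) that holds the transcription factor DAF-16, the worm's FoxO protein, out of the nucleus. The allele e1370 lowers the receptor's function in a temperature-sensitive way, and DAF-16 then enters the nucleus and changes genes of stress resistance, metabolism and development. In larvae that hatch without food, wild-type worms also lower this signalling, and daf-16 is needed for the developmental arrest that follows. The proteins named irld resemble the ligand-binding domains of insulin and EGF receptors.

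The libraries with daf-2(e1370) held 15527842 to 24903552 gene counts each and those without it 14033534 to 18089336. Adult yolk protein genes gave 2.93 to 26.2 CPM (a library's gene counts scaled to a common total and by its TMM factor, edgeR's correction for library composition) in sum with the allele and 3.50 to 10.9 without, and none of 31 major sperm protein genes was high enough to test. The defining markers of intestine, muscle, neurons, hypodermis and primordial germ cells were detected in both sets of libraries. The first principal component of log2 CPM, with 42.4% of the variance, placed the 8 libraries without the allele between -38.3 and -31.4. Those with it lay between 4.36 and 61.4, with daf-2 mutant replicates 4 and 2 and replicate 1 of LRB458 nearest to the others, at 4.36, 6.90 and 19. Counts are relative to the total of each library, and in whole larvae fewer cells of a type and less RNA per cell cannot be told apart.

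The genes that carry the alleles come first. The receptor gene daf-2 lies on chromosome III at 2994514 to 3040846 (WBcel235). It had 242 CPM in the lowest library without the allele, 541 in the median and 569 in the highest, and at 373, 427 and 480 CPM with it. The libraries with the allele lay within the range of the others, and the log2 fold change was -0.08 ± 0.16 (standard error; adjusted p = 0.741). Without wild-type replicates 2 and 3, a pair left out together because of earlier results of these data, daf-2 was called lower, at -0.28 with an adjusted p of 0.0117. Both irld-39 and irld-52 were too low to test, with 39 and 44 counts over the 8 libraries with daf-2(e1370) and 36 each over the 8 without. Over the 8 libraries with the irld alleles they had 49 and 47 counts, and over the 8 without 26 and 33.

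Larvae with daf-2(e1370) differed from the others in about as many genes upward as downward, and further upward. Of 14058 genes tested, 2232 (15.9%) were called higher and 2124 (15.1%) lower with the allele, at an adjusted p under 0.05. When each library was scaled by all its reads, without TMM factors, these were 2618 and 1653, which moves the share of calls that are higher from 51.2% to 61.3%. Over 2-fold, 762 genes were higher and 341 lower, and over 4-fold 270 and 64. Of the called genes, 2190 (50.3%) changed by less than 1.5-fold, and the median log2 fold change was 0.72 among genes called higher and -0.48 among those called lower. In 589 tested genes (4.19%) every library with the allele lay above every library without it, and in 580 (4.13%) below. The irld term of the same model called 3 genes (0.0213%), with 865 at an unadjusted p under 0.05. These were irld-35, irld-53 and WBGene00017496, with means of 29.9, 32.1 and 6.63 CPM in the daf-2 mutant. In wild type, the irld mutant and the triple mutant each averaged at most 0.207 CPM. The 3 calls thus come from the CB1370 libraries and not from a difference between wild type and the irld mutant.

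**Figure D1:**
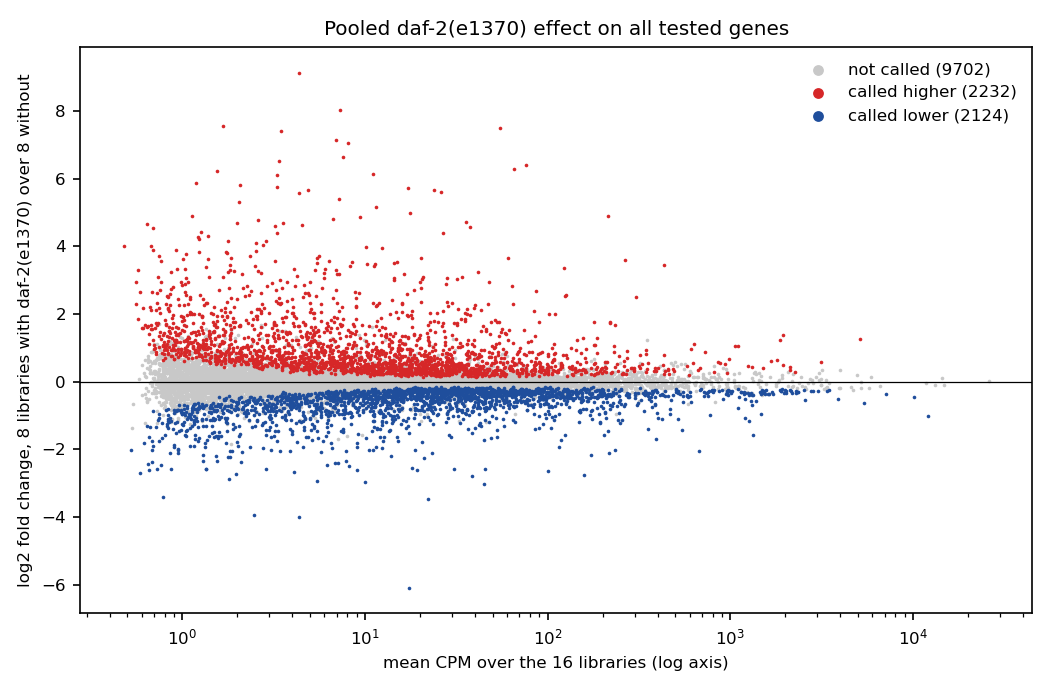
Each point is 1 of the 14058 tested genes, placed by its mean CPM over the 16 libraries (log axis) and its log2 fold change between the 8 libraries with daf-2(e1370) and the 8 without. The 2232 genes called higher (red) reach further from 0 than the 2124 called lower (blue), and most genes of the highest level that were called lie just below 0.

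The direction of the calls shifted with a gene's level. Among the 4662 tested genes with a mean under 5 CPM, 17% were called higher and 9.55% lower. Between 5 and 50 CPM these shares were 16.9% and 15.8%, between 50 and 500 CPM 11.9% and 21.4%, and above 500 CPM 9.6% and 35.4%, in 302 genes. The cytosolic ribosomal protein genes had list means of 9.99 to 10.7 log2 CPM per library, and 58 of 80 were called lower. As given below, that count hung on single libraries, and its part in the share of the highest class was not tested. The chromosomes differed less, with 27.2% of the tested genes of chromosome I called and 36% of those of chromosome V, the lowest and highest shares. Pseudogenes made up 436 of the tested genes, of which 73 were higher and 42 lower. Genes known only by a sequence name were 41.4% of those called higher and 44.5% of those called lower, against 41.7% of all tested.

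The libraries with the allele varied more among themselves in the genes that changed most, though less over all tested genes. The standard deviation of log2 CPM had a median of 0.212 over all tested genes with the allele and 0.287 without it. Among the 270 genes over 4-fold higher it was 1.39 with the allele and 0.616 without, and among the 64 over 4-fold lower 0.594 and 0.447. Over all genes called higher it was 0.263 and 0.309. The prior count narrows the spread of log2 CPM near 0 CPM, and its part in these contrasts was not tested. Of the 762 genes over 2-fold higher, the library with the allele that lay nearest to the others was daf-2 mutant replicate 4 for 32.4%, daf-2 mutant replicate 2 for 23.5% and LRB458 replicate 1 for 17.3%. The highest library was LRB458 replicate 4 for 41.1%. Without the 3 libraries nearest to the others on the first component, 1957 genes were called higher and 1643 lower, and 3203 of the 4356 calls were shared.

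The largest increases fell into a group that was high in every library with the allele and a group that was high in some. The genes shown are the 14 with the largest change in each direction among called genes that averaged 5 CPM or more and had no overlap between the libraries with and without the allele. That choice fixed the separation of the libraries in these genes, which is therefore not a result. H39E23.3 (chromosome V, 14107811 to 14110051) was at 0.831 CPM in the lowest library without the allele, 1.87 in the median and 2.66 in the highest, and at 109.7, 146 and 181 CPM with it. The log2 fold change was 6.41 ± 0.20 (adjusted p = 2.19e-12). D1086.9, whose gene lies next to H39E23.3 on the same chromosome (14104270 to 14106330), rose from 4.37, 10.4 and 30.2 CPM to 251, 392 and 648 CPM (4.91 ± 0.42, adjusted p = 6.58e-07).

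F46F2.3 was at 42.6, 70.6 and 100.5 CPM without the allele and 622, 764 and 1077 CPM with it (3.46 ± 0.16, adjusted p = 2.97e-10). The gene catp-3, which encodes a P-type ATPase ion pump, rose from 1.15, 2.31 and 5.18 CPM to 38.5, 51.5 and 117 CPM (4.72 ± 0.34, adjusted p = 1.07e-07). B0511.11, the cuticle collagen gene col-50 and fipr-26, a relative of the fungus-induced peptides, also rose, by 3.51 ± 0.22, 3.50 ± 0.25 and 3.49 ± 0.35 on the log2 scale. Among the genes with the smallest adjusted p were CC8.2 (2.01 ± 0.08), F38B6.4 (2.09 ± 0.10), K07B1.4 (2.42 ± 0.13) and icmt-1, the gene of an enzyme that methylates prenylated proteins. The level of icmt-1 rose from 0.192, 0.293 and 0.617 CPM to 6.08, 7.54 and 14.7 CPM (4.63 ± 0.26, adjusted p = 2.33e-09). It passed the filter of 1 CPM in 4 libraries only through libraries with the allele.

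Other large increases spread over a wide range. F57H12.6 was at 0, 0.548 and 1.53 CPM in the lowest, median and highest library without the allele and at 3.06, 74.6 and 269 CPM with it (7.496 ± 1.13, adjusted p = 1.54e-04). C02E7.7 reached from 3.32 to 464 CPM with the allele, gst-33 from 1.32 to 127 CPM and ugt-41 from 1.60 to 34.9 CPM, against at most 2.93, 1.15 and 0.569 CPM without. The gene ugt-41 passed the filter of 1 CPM in 4 libraries only through libraries with the allele. The glutathione S-transferase encoded by gst-33 and the UDP-glycosyltransferase encoded by ugt-41 belong to detoxifying enzyme families. In F57H12.6 and C02E7.7 the lowest library was daf-2 mutant replicate 4 and the highest LRB458 replicate 4. The same held for cdr-4, a gene named for its response to cadmium, at 12.3 to 266 CPM with the allele and 6.43 to 11.6 without (3.67 ± 0.66, adjusted p = 6.89e-04). The peptide gene fip-6 and far-3, whose product binds fatty acids and retinol, also rose (4.86 ± 0.60 and 4.58 ± 0.75).

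**Figure D2:**
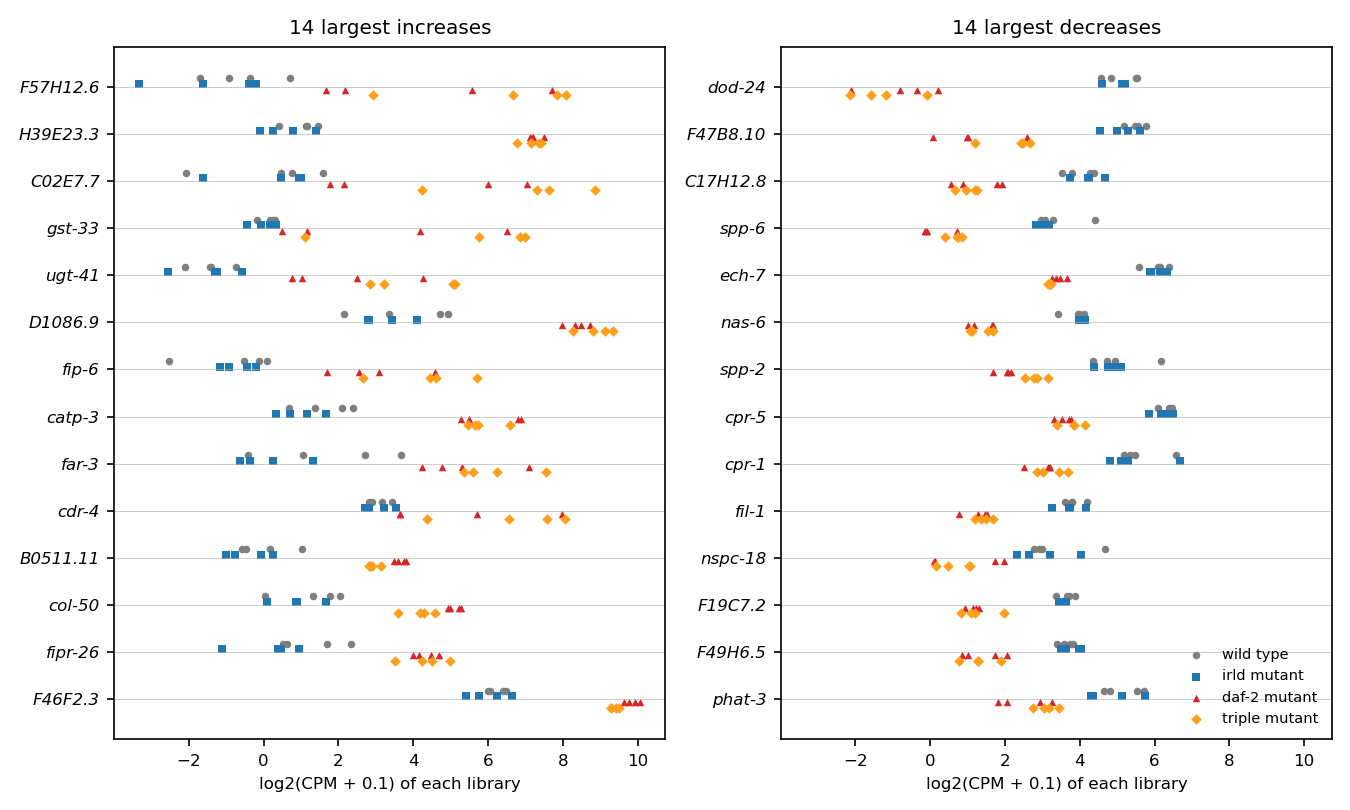
Each point is 1 library's log2(CPM + 0.1) for 1 gene, with wild type as grey circles, the irld mutant as blue squares, the daf-2 mutant as red triangles and the triple mutant as orange diamonds. In H39E23.3 the 8 libraries with daf-2(e1370) sit close together between 109.7 and 181 CPM, in F57H12.6 they spread from 3.06 to 269 CPM, and in dod-24 they lie at or under 1.06 CPM.

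The gene with the largest decrease was dod-24. Its name is for lying downstream of DAF-16, and it was at 23.4, 35.2 and 46.2 CPM without the allele and 0.126, 0.407 and 1.06 CPM with it (-6.08 ± 0.30, adjusted p = 1.54e-09). This gene too was among those chosen for no overlap. For spp-6 and spp-2, saposin-like genes whose products resemble pore-forming antimicrobial proteins, the log2 fold changes were -2.93 ± 0.26 and -2.61 ± 0.29. The cathepsin B-like protease gene cpr-5 fell from 57.7, 79.998 and 89.7 CPM to 9.77, 13.3 and 17.5 CPM (-2.58 ± 0.12, adjusted p = 4.32e-10), and cpr-1 changed by -2.57 ± 0.29. The metalloprotease gene nas-6 changed by -2.62 ± 0.14, and phat-3, a pharyngeal gland gene, by -2.26 ± 0.28.

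Genes of lipid enzymes were also among the largest decreases. The enoyl-CoA hydratase gene ech-7 fell from 48.0, 69.3 and 82.8 CPM to 8.80, 9.33 and 12.5 CPM (-2.77 ± 0.11, adjusted p = 3.74e-11), the smallest adjusted p among genes that fell. The gene fil-1, of a lipase named for induction by fasting, changed by -2.48 ± 0.15. F47B8.10, C17H12.8, F19C7.2, F49H6.5 and nspc-18, for which no role is given here, changed by -3.46 ± 0.35, -2.97 ± 0.22, -2.38 ± 0.15, -2.34 ± 0.19 and -2.45 ± 0.38. F52E1.14 was among the 6 genes that fell with the smallest adjusted p (-1.71 ± 0.09, adjusted p = 8.73e-10).

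Genes described as induced when DAF-16 is active rose in 14 cases (46.7%) and fell in 3, of 30 tested of 31. Their median log2 fold change was 0.61, against -0.01 over all tested genes, of which 15.9% rose. The list mean overlapped, at 5.26 to 6.44 log2 CPM with the allele and 5.10 to 5.87 without. Without overlap 7 members rose and 2 fell, against 4.19% and 4.13% of all tested genes. The mitochondrial superoxide dismutase gene sod-3 rose from 10.2, 14.2 and 24.5 CPM to 31.1, 38.8 and 46.7 CPM (1.32 ± 0.16, adjusted p = 1.34e-05), with no overlap. The lysosomal lipase gene lipl-4 rose from 0.0606, 0.140 and 0.285 CPM to 1.26, 2.35 and 2.85 CPM (3.83 ± 0.29, adjusted p = 5.19e-08). It was near 0 without the allele and passed the filter of 1 CPM in 4 libraries only through those with it. The gene dao-3 rose by 1.03 ± 0.12. The isocitrate lyase gene icl-1, of the glyoxylate cycle that turns fat into sugar, rose from 61.6, 91.4 and 198 CPM to 209.7, 336 and 521 CPM (1.77 ± 0.26, adjusted p = 9.48e-05).

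Against these, hsp-12.6, a small heat shock protein gene, fell from 107, 136 and 237 CPM to 28.6, 59.2 and 77.8 CPM (-1.36 ± 0.19, adjusted p = 3.90e-05), with no overlap. The metallothionein genes, which bind metals, went apart. The level of mtl-1 was 212, 299 and 497 CPM without the allele and 358, 441 and 489 CPM with it, which overlap (0.40 ± 0.15, adjusted p = 0.0439). That call was lost in 17 of the 30 alternatives tried, with a log2 fold change of 0.32 to 0.59 over all 30. The level of mtl-2 fell from 13.9, 16.9 and 41.5 CPM to 2.19, 4.92 and 7.38 CPM (-1.97 ± 0.24, adjusted p = 1.53e-05). Of 9 tested of 14 genes described as repressed by DAF-16, dod-24 and dod-22 fell (for dod-22 the log2 fold change was -3.996 ± 0.24, adjusted p = 3.29e-09) and cdr-2 rose (1.76 ± 0.18), and the median was 0.18.

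The pathway itself changed little in RNA level. Of 26 insulin signalling genes, asna-1, unc-64, par-5 and 2 others fell (19.2%, against 15.1% over all tested) and 1 rose, with a median of -0.03. The largest of the 3 named was asna-1, of an ATPase that places proteins in membranes and promotes insulin secretion, at -0.44 ± 0.07 (adjusted p = 1.65e-04). The gene of the 14-3-3 protein par-5, which binds phosphorylated DAF-16, changed by -0.31 ± 0.07. The level of daf-16 was 132, 249 and 277 CPM without the allele and 195, 223 and 253 CPM with it (-0.04 ± 0.11, adjusted p = 0.832). Without wild-type replicates 2 and 3 it was called lower, at -0.16 with an adjusted p of 0.0349, and 9 of the 26 genes fell.

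Of the ligands, 21 of 39 insulin-like peptide genes were tested, 5 rose (23.8%, against 15.9% over all tested) and 1 fell. The number higher was 3 without daf-2 mutant replicate 3 or LRB457 replicate 3 and 2 without the LRB457 line. The level of ins-27 rose from 10.8, 13.1 and 17.6 CPM to 25.8, 28.9 and 40.1 CPM (1.22 ± 0.09, adjusted p = 7.37e-08), and ins-5 rose by 2.45 ± 0.39 from a median of 0.351 CPM. The level of ins-17 fell from 100.8, 113.1 and 149.8 CPM to 73.4, 79.4 and 102 CPM (-0.50 ± 0.09, adjusted p = 2.73e-04). The DAF-2 agonist gene daf-28 was not called (0.22 ± 0.29, adjusted p = 0.612), and ins-7 had 12 counts in all with the allele and 7 without, too few to test. Of 16 genes of the other dauer pathways, TGF-beta and steroid hormone, 1 fell.

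**Figure D3:**
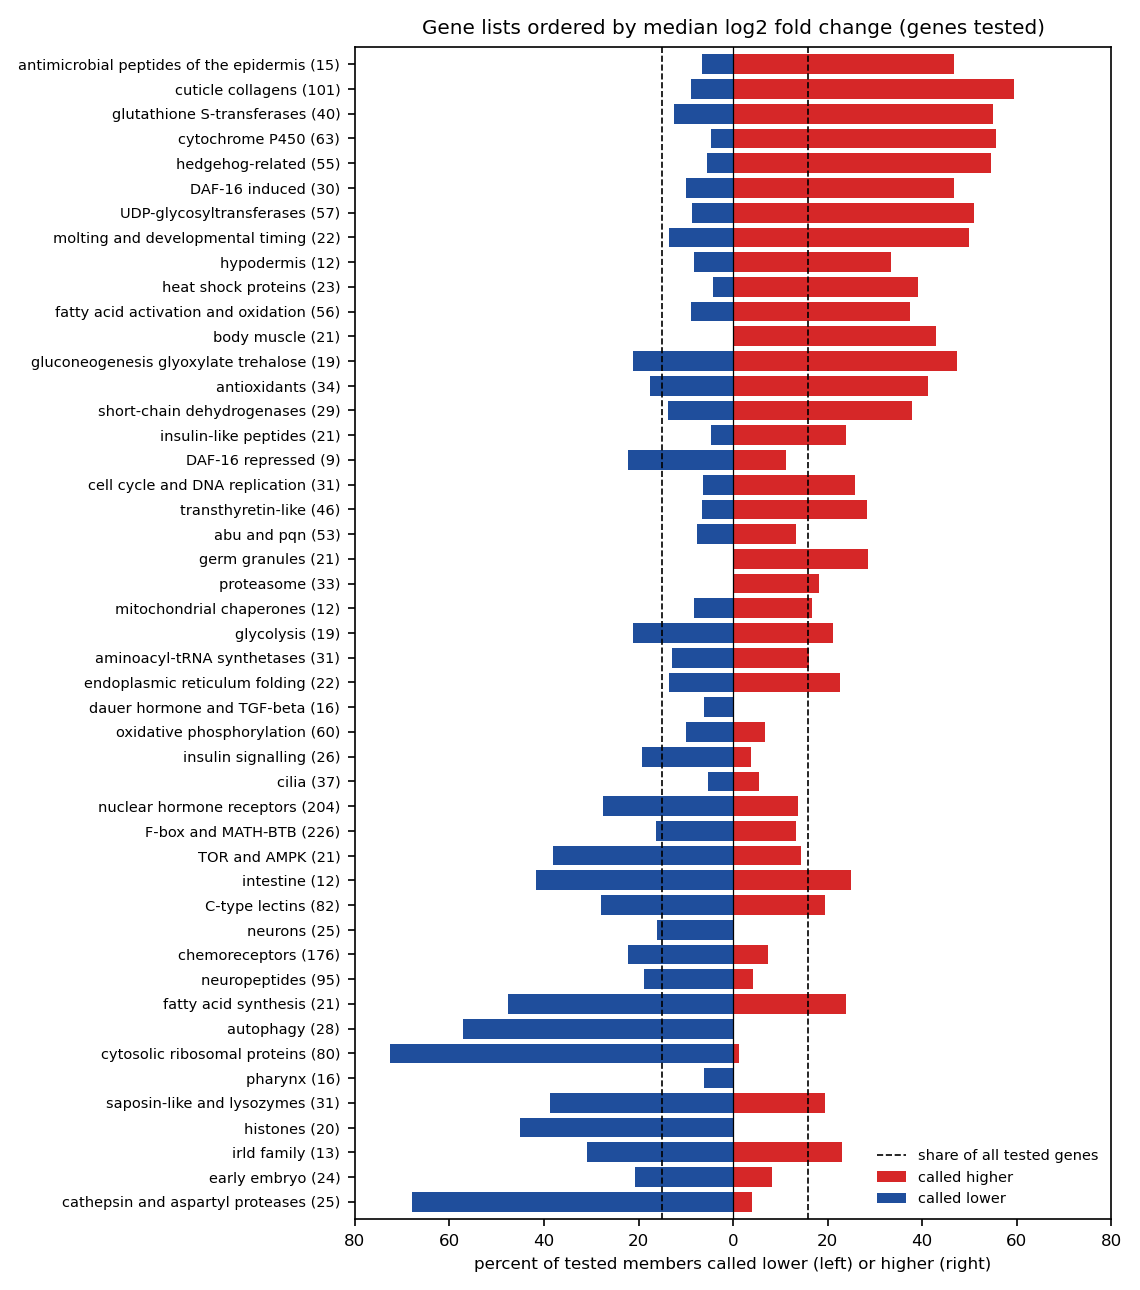
Bars give the percent of tested members of each gene list called lower (blue, to the left) or higher (red, to the right) with daf-2(e1370), for lists with at least 9 tested members, ordered by median log2 fold change with the number tested in brackets. Dashed lines mark the shares over all tested genes, 15.1% lower and 15.9% higher. Cuticle collagens, P450 enzymes and glutathione S-transferases extend furthest to the right, ribosomal proteins and cathepsin and aspartyl proteases furthest to the left.

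Most tested collagen genes of the cuticle rose. The cuticle is a coat of collagen that the hypodermis, the worm's skin, lays down anew before each molt. Of 177 collagen genes 101 were tested, 60 rose (59.4%) and 9 fell, with a median log2 fold change of 0.89. Of the 101, 25 rose without overlap, against 4.19% of all tested genes. Summed over the family, collagen RNA was 8920 to 16730 CPM without the allele and 21020 to 30830 CPM with it. The level of col-166 rose from 71.6, 101 and 120.5 CPM to 248, 322 and 465 CPM (1.72 ± 0.13, adjusted p = 4.99e-08), and col-124 rose by 2.28 ± 0.19. A collagen gene of body shape, dpy-5, fell from 17.3, 52.3 and 193 CPM to 3.20, 8.11 and 25.5 CPM (-3.03 ± 0.53, adjusted p = 5.30e-04), and the ranges overlap.

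Genes of molting and developmental timing fell in 3 of 22 cases, or in 5 without wild-type replicate 3. Those that rose numbered 11 (50%, against 15.9% over all tested), and the median of the list was 0.49. The genes that rose included mlt-8, needed for molting (1.77 ± 0.30), and blmp-1, a transcription factor gene of stage timing (0.75 ± 0.14). Another was lin-42, the worm's relative of the period clock gene (1.70 ± 0.31). Of 55 hedgehog-related and patched-related genes, many of them made in the skin, 30 rose and 3 fell (median 0.66). The neighbours grd-13 and grd-10 on chromosome IV rose by 3.18 ± 0.18 and 2.098 ± 0.15, and grd-5 by 2.12 ± 0.17. For grd-13 these were 1.94, 3.11 and 4.25 CPM without the allele and 19.9, 27.8 and 44.5 CPM with it, far apart.

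Of 12 hypodermis markers, 4 rose (33.3%) and 1 fell (8.33%), against 15.9% and 15.1% over all tested. In sum they stood at 319 to 599 CPM without the allele and 536 to 735 CPM with it. Those that rose included grd-10, wrt-10 (1.92 ± 0.38) and dpy-7 (2.04 ± 0.47). Of these, grd-10 and wrt-10 are hedgehog-related genes and dpy-7 is a cuticle collagen gene, so their rise partly restates those lists. The transcription factor genes lin-26 and elt-1 were not called (0.15 ± 0.15 and 0.11 ± 0.13), and elt-3 fell by 0.34 ± 0.11. None of these was at 0, and the part of skin cell number in the collagen counts was not tested. The antimicrobial peptides of the epidermis had 15 tested of 19, 7 higher and 1 lower, and the highest list median, 1.16. The level of cnc-11 rose from 13.6, 33.6 and 56.4 CPM to 55.9, 85.1 and 134 CPM (1.53 ± 0.26, adjusted p = 4.25e-04), with a small overlap. Without daf-2 mutant replicate 3, 4 of the 15 were called higher.

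**Figure D4:**
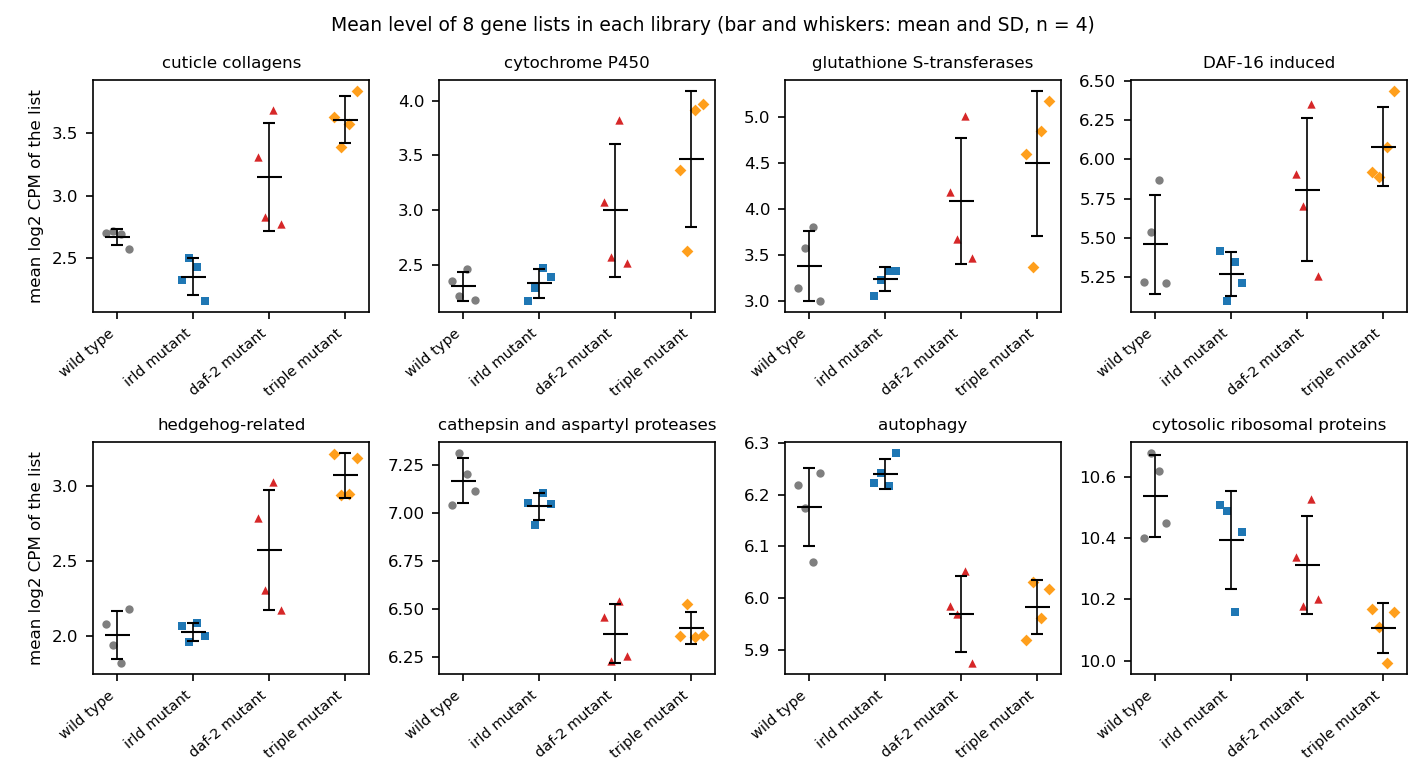
Each point is the mean log2 CPM of a list's tested genes in 1 library, by group, with the mean and SD of the 4 libraries of each group in black (y axes differ and do not start at 0). Collagens, P450 enzymes and hedgehog-related genes are on average higher with the allele and spread widely in the daf-2 mutant, while the protease and autophagy lists lie lower in all 8 libraries with daf-2(e1370) than in any without.

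More genes rose than fell in 3 families of enzymes that oxidise foreign or waste molecules or attach small groups to them. Of 63 tested cytochrome P450 genes, 35 rose (55.6%, against 15.9% over all tested) and 3 fell (median 0.69). The list mean did not overlap between the libraries with the allele (2.52 to 3.97 log2 CPM) and without (2.17 to 2.47). The adjacent genes cyp-33C1 and cyp-33C2 rose by 2.32 ± 0.21 and 2.70 ± 0.25, and cyp-34A6 by 1.49 ± 0.14. As close relatives they may share reads. Of 57 UDP-glycosyltransferase genes, 29 rose and 5 fell (median 0.52). The level of ugt-6 rose from 10.8, 14.9 and 20.0 CPM to 40.1, 47.2 and 60.4 CPM (1.68 ± 0.12, adjusted p = 4.42e-08), and ugt-49 fell by 0.82 ± 0.08.

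Among 40 genes of glutathione S-transferases 22 rose (55%, against 15.9% over all tested) while 5 fell (median 0.78). The mean over the list overlapped (3.37 to 5.17 log2 CPM with the allele, 3.00 to 3.81 without). A target of the stress factor SKN-1, gst-4, rose from 3.71, 5.196 and 10.2 CPM to 14.7, 39.7 and 118.7 CPM (3.07 ± 0.46, adjusted p = 1.46e-04). The clearest decreases, gst-27 and gst-22, changed by -1.42 ± 0.09 and -1.41 ± 0.15. In gst-27 the libraries were at 59.8, 76.05 and 97.5 CPM without the allele and 22.97, 28.6 and 33.7 CPM with it. In all 3 families the library of the highest list mean was LRB458 replicate 4, and the lowest with the allele was daf-2 mutant replicate 4 or, for the transferases of glutathione, LRB458 replicate 1. Without the 3 libraries low on the first component the medians were 0.97 (P450 enzymes), 0.56 (UDP-glycosyltransferases) and 1.04 (glutathione S-transferases).

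Genes against oxidative and protein damage had smaller median changes. Of 34 antioxidant genes, 14 rose and 6 fell (median 0.21), with 9 higher when the LRB457 libraries were left out. Both of the neighbouring catalase genes rose, ctl-1 by 0.89 ± 0.12 and ctl-3 by 0.97 ± 0.13, and ctl-1 went from 132, 156 and 217 CPM to 247, 302 and 368 CPM (adjusted p = 2.04e-05). Of 23 cytosolic heat shock and chaperone genes, 9 rose and hsp-12.6 alone fell (median 0.33), with hsp-70 up by 1.64 ± 0.21 and the cochaperone gene dnj-13 by 0.66 ± 0.10. Of 22 folding genes of the endoplasmic reticulum, 5 rose (22.7%) and 3 fell (13.6%), with a median of 0.04. Among them the disulfide isomerase gene pdi-3 and the BiP gene hsp-3 rose (0.38 ± 0.07 and 0.33 ± 0.07), and uggt-2, of the glycoprotein folding sensor family, fell by 1.60 ± 0.23. Of 12 mitochondrial chaperone and protease genes, 2 rose (16.7%), with hsp-60 at 0.68 ± 0.12, and 1 fell (8.33%). Over all tested genes 15.9% rose and 15.1% fell.

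The enzymes of fat and sugar metabolism are taken by pathway. Of 21 fatty acid synthesis genes, 10 fell (47.6%) and 5 rose (23.8%), against 15.1% and 15.9% over all tested (median -0.27). The number that rose was 3 without daf-2 mutant replicate 3, irld mutant replicate 2 or 3, LRB457 replicate 3 or LRB458 replicate 4, and 2 without irld mutant replicate 4. The level of fat-2, of the desaturase that opens the route to polyunsaturated fatty acids, fell from 794, 1075 and 1340 CPM to 213, 257 and 316 CPM (-2.04 ± 0.10, adjusted p = 6.27e-10), with a wide gap between the libraries. The desaturase gene fat-3 and the elongase gene elo-2 changed by -1.56 ± 0.10 and -0.83 ± 0.08. Of 56 genes that activate and oxidise fatty acids, 21 rose and 5 fell (median 0.33), among them acox-1.4 (1.30 ± 0.14), acs-21 (0.84 ± 0.10) and, downward, ech-7. Without wild-type replicates 2 and 3, 32 of 54 rose, and without irld mutant replicate 1, 3 fell.

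Of the 5 tested lysosomal lipase genes all were called, lipl-4 and 2 others upward and lipl-5 and 1 other downward. The level of lipl-5 was 169, 182 and 204 CPM without the allele and 35.8, 48.998 and 59.7 CPM with it (-1.92 ± 0.11, adjusted p = 1.93e-09). Of 19 genes of gluconeogenesis, the glyoxylate cycle and trehalose, 9 rose and 4 fell (median 0.22). The malate dehydrogenase gene mdh-2 rose from 77.2, 83.0 and 92.2 CPM to 118, 132 and 140 CPM (0.64 ± 0.06, adjusted p = 3.31e-07). The genes tre-3 and tre-5, of enzymes that split trehalose, changed by -1.30 ± 0.09 and -2.02 ± 0.15. Of 19 glycolysis genes, 4 rose and 4 fell (21.1% each, against 15.9% and 15.1% over all tested). For pgk-1 the change was 0.27 ± 0.07 and for hxk-3 -0.39 ± 0.07, and 2 rose without wild-type replicate 4.

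Genes of lysosomal proteases and of autophagy mostly fell. Of 25 tested cathepsin and aspartyl protease genes, 17 fell (68%, against 15.1% over all tested) and 1 rose (median -0.42). Their RNA was 26060 to 43920 CPM in sum without the allele and 17560 to 24660 CPM with it. Of the 25, 12 fell without overlap, against 4.13% of all tested genes. The aspartyl protease gene asp-14 fell from 176, 275 and 433 CPM to 45.7, 65.7 and 79.8 CPM (-2.15 ± 0.16, adjusted p = 5.24e-08). The most abundant of them, asp-1, fell from 11466, 16633 and 22530 CPM to 6333, 7463 and 10157 CPM (-1.01 ± 0.13, adjusted p = 1.93e-05). The gene of the lysosomal DNase, nuc-1, changed by -1.04 ± 0.11.

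These proteases are largely made in the intestine, so its markers are given beside them. Of 12 intestine markers, 5 fell (41.7%) and 3 rose (25%), against 15.1% and 15.9% over all tested. In sum they stood at 15560 to 28810 CPM without the allele and 10570 to 15540 CPM with it. Of a library's marker counts, 59.4% to 78.2% came from asp-1, which both lists hold. The gut esterase gene ges-1 changed by -0.86 ± 0.07, the gut actin gene act-5 by 1.08 ± 0.10 and the gut regulator gene elt-2 by 0.34 ± 0.11, while elt-7 was not called (-0.11 ± 0.07). None was at 0. The part of intestinal cell number in the protease counts was not tested.

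None of 28 autophagy genes rose and 16 fell (57.1%, median -0.28), against 15.9% and 15.1% over all tested. The log2 fold changes of the list ran from -0.73 to 0.35. The level of lgg-2, of an LC3-like protein of the autophagosome, was 427, 461 and 528 CPM without the allele and 257, 284 and 300.6 CPM with it (-0.73 ± 0.06, adjusted p = 1.34e-07). The genes epg-9 and lgg-3, of proteins that start and build the autophagosome, changed by -0.66 ± 0.08 and -0.59 ± 0.10. The list mean fell from 6.07 to 6.28 log2 CPM without the allele to 5.87 to 6.05 with it, with no overlap. Of 21 TOR and AMPK genes, which sense nutrients and energy, 8 fell (38.1%) and 3 rose (14.3%), against 15.1% and 15.9% over all tested. Among them crtc-1, aak-1 and rheb-1 changed by -0.45 ± 0.07, -0.54 ± 0.10 and -0.24 ± 0.05. The number that fell was 4 without the LRB457 or the LRB458 line. It was 3 with no filter on low counts and 3 without the 3 libraries low on the first component.

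Immune effector genes went both ways. Of 31 tested saposin-like and lysozyme genes, 12 fell (38.7%) and 6 rose (19.4%), with a median of -0.32. Over all tested genes 15.1% fell and 15.9% rose. Beside spp-6 and spp-2, spp-18 fell from 50.5, 56.2 and 85.8 CPM to 21.1, 25.3 and 29.02 CPM (-1.22 ± 0.11, adjusted p = 5.13e-07), and spp-17 changed by -3.93 ± 0.40 at low level. Of 82 tested of 239 C-type lectin genes, 23 fell (28%) and 16 rose (19.5%), with a median of -0.13. The changes of clec-62 and clec-50 were -0.91 ± 0.08 and -0.89 ± 0.11. With no filter on low counts 29 C-type lectin genes rose, in a fit of 30794 genes in place of 14058, so not out of the same 82.

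RNA of the translation machinery was slightly lower. Of 80 tested cytosolic ribosomal protein genes, 58 fell and 1 rose (72.5% lower, median -0.28). No member separated the libraries, and the summed level was 122700 to 176200 CPM without the allele and 107300 to 158500 CPM with it, which overlap widely. The level of rpl-26 was 1204, 1517 and 1786 CPM without the allele and 1004, 1121 and 1325 CPM with it (-0.39 ± 0.07, adjusted p = 6.17e-04). This count hung on single libraries: 36 fell without irld mutant replicate 1 and 38 without LRB457 replicate 3. It was 22 without the LRB457 line, 29 without the LRB458 line and 12 without the 3 libraries low on the first component, at a median of -0.23 in the last case. With library sizes of all reads 50 fell.

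Of 33 proteasome genes, 6 rose (18.2%), near the 15.9% over all tested genes. Their log2 fold changes ran from -0.35 to 0.28, and between 0 and 17 were called higher in the alternatives. None was called higher without daf-2 mutant replicate 3 or irld mutant replicate 4, and 1 without daf-2 mutant replicate 1, irld mutant replicate 2 or LRB458 replicate 1. Without LRB457 replicate 3 it was 3, and without wild-type replicate 3 it was 11. Of 60 oxidative phosphorylation genes, 4 rose (6.67%) and 6 fell (10%), both under the shares of all tested genes (median -0.02). Without wild-type replicates 2 and 3, 24 rose, at a median of 0.10. Leaving out 1 library gave 2 that rose (daf-2 mutant replicate 3, irld mutant replicate 4, LRB457 replicate 1 or wild-type replicate 1), 7 (wild-type replicate 2) or 8 (wild-type replicate 3), and 2 that fell (irld mutant replicate 1) or 3 (daf-2 mutant replicate 1 or 2). Of 31 aminoacyl-tRNA synthetase genes, 5 rose and 4 fell, with cars-1 at -0.41 ± 0.07, and 8 rose without irld mutant replicate 1. Only 20 of 82 histone genes were tested, and of these none rose and 9 fell (45%, against 15.1% over all tested, median -0.33). Among those that fell was his-71, a replacement histone H3 gene, at -0.38 ± 0.08.

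Of 31 cell cycle and replication genes, 8 rose (25.8%, against 15.9% over all tested) and 2 fell. Those that fell were cdk-2 (-0.49 ± 0.08) and the arrest gene cki-1 (-0.35 ± 0.08), while the replication helicase gene mcm-6 rose by 0.43 ± 0.08. Without the 3 libraries low on the first component 3 genes of the list were called higher. Maternal RNAs of the early embryo had 24 tested genes, of which 5 fell (20.8%, against 15.1% over all tested) and 2 rose (median -0.41). The gene mex-5, of an RNA-binding protein of the early embryo, was at 7.86, 12.5 and 25.09 CPM without the allele and 2.26, 5.64 and 13.9 CPM with it (-1.16 ± 0.34, adjusted p = 0.0159). The number that fell was 10 without LRB458 replicate 1, 8 without daf-2 mutant replicate 2 or replicate 4, and 12 without all 3. Of 21 germ granule genes, 6 rose and none fell (median 0.10), such as prg-1, the gene of the piRNA-binding Argonaute (0.65 ± 0.13). Without the same 3 libraries 2 were called higher and 3 lower, at a median of -0.07.

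Neuropeptide genes fell at about the share of all genes. Of 95, 18 fell (18.9%, against 15.1% over all tested) and 4 rose (median -0.25), with flp-10 at -0.81 ± 0.10 and nlp-9 at -0.44 ± 0.08. The count that fell was 8 to 11 under several alternatives, 10 without LRB458 replicate 1 and 11 without irld mutant replicate 1, wild-type replicate 2 or daf-2 mutant replicate 2. Of 25 neuron markers, 4 fell (16%) and none rose (median -0.14), with 3407 to 4008 CPM in sum with the allele and 3437 to 5279 CPM without. Of 176 tested of 1300 chemoreceptor genes, 39 fell (22.2%) and 13 rose, with srv-4 at -2.65 ± 0.29 and srbc-20 at 1.47 ± 0.15. With no filter on low counts 66 rose, in a fit of 30794 genes in place of 14058, so not out of the same 176. Of 204 nuclear hormone receptor genes, 56 fell (27.5%) and 28 rose. The level of nhr-18 changed by -0.75 ± 0.06 and that of nhr-246 by 2.05 ± 0.21.

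Of 226 F-box and MATH-BTB genes, which mark proteins for degradation, 37 fell and 30 rose, near the shares over all genes. The clearest, fbxa-24, fell from 468, 506 and 591 CPM to 167, 194 and 250 CPM (-1.39 ± 0.08, adjusted p = 2.42e-09). Of 29 short-chain dehydrogenase genes, 11 rose (37.9%) and 4 fell (13.8%), with a median of 0.20. Of 53 abu and pqn genes, many of proteins rich in glutamine and asparagine, 7 rose (13.2%) and 4 fell (7.55%). Of 37 cilia genes 2 rose and 2 fell (5.41% each). Over all tested genes 15.9% rose and 15.1% fell. Of 13 tested irld family genes of 57, 3 rose, irld-35 and irld-53 among them, and 4 fell. Both irld-35 and irld-53 were near 0 CPM in the triple mutant, which carries the same daf-2 allele. They passed the filter of 1 CPM in 4 libraries only through the daf-2 mutant. The number that fell was 1 without irld mutant replicate 1, and 2 without irld mutant replicate 2 or 4, LRB457 replicate 1 or LRB458 replicate 4. Of 46 transthyretin-like genes, 13 rose and 3 fell, with ttr-15 at 1.06 ± 0.17, and 6 fell without irld mutant replicate 3. Of 21 body muscle genes, 9 rose and none fell (median 0.23), or 4 without the 3 libraries low on the first component, with the muscle attachment gene dim-1 at 0.79 ± 0.08. The myosin genes unc-54 and myo-3 were not called (0.12 ± 0.19 and 0.16 ± 0.12). Of 16 pharynx genes, phat-3 alone was called.

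The effect was then set side by side in the irld backgrounds, between groups that share no library. Without the irld alleles, 2209 genes (15.7%) were called in the daf-2 mutant against wild type. With them, 2593 genes (18.4%) were called between the triple mutant and the irld mutant. In both, 1344 genes were called the same way, 639 higher and 705 lower, which is 60.8% of the first list and 51.8% of the second. Across the 14058 genes, which are not independent replicates, Pearson's r of the log2 fold changes was 0.763 and Spearman's rho 0.635, and 71.2% had the same sign. The sod-3 change was 1.30 ± 0.24 without and 1.33 ± 0.24 with the irld alleles, that of H39E23.3 6.23 ± 0.28 and 6.61 ± 0.29, and that of fat-2 -1.89 ± 0.14 and -2.19 ± 0.14. List medians lay further apart: 0.25 without and 0.95 with the irld alleles for genes induced by DAF-16, 0.52 and 1.24 for cuticle collagens, and 0.42 and 0.86 for hedgehog-related genes. Of the collagens 35 were called without and 67 with the irld alleles, and of the 15 epidermal antimicrobial peptide genes 1 and 7. For autophagy the medians were -0.24 and -0.30 and for cathepsin and aspartyl proteases -0.44 and -0.40. None of the genes in these lists was called in the test of the difference between backgrounds, and the differences between list medians were not tested.

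Pooling the groups called 1210 genes that were called in neither background, and left uncalled 310 that were called in at least 1. The first set had a median size of log2 fold change of 0.36, and its 6 genes of smallest pooled adjusted p with a mean of at least 5 CPM serve as examples. The basement membrane collagen gene let-2 changed by 0.53 ± 0.18 without the irld alleles (adjusted p = 0.0516) and 0.51 ± 0.18 with them (0.0532), and by 0.52 ± 0.12 in the pooled fit (0.00337). The same order of values was found for csq-1, of the muscle calcium store protein calsequestrin (0.35 ± 0.12, 0.35 ± 0.12 and, pooled, 0.35 ± 0.08). It was also found for the galectin gene lec-9, pooled at 0.57 ± 0.14, K03B8.6, at 0.47 ± 0.11, F20G2.6, at -0.54 ± 0.13, and C02B8.3, at -0.88 ± 0.21. The pooled comparison shares its libraries with both others.

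**Figure D5:**
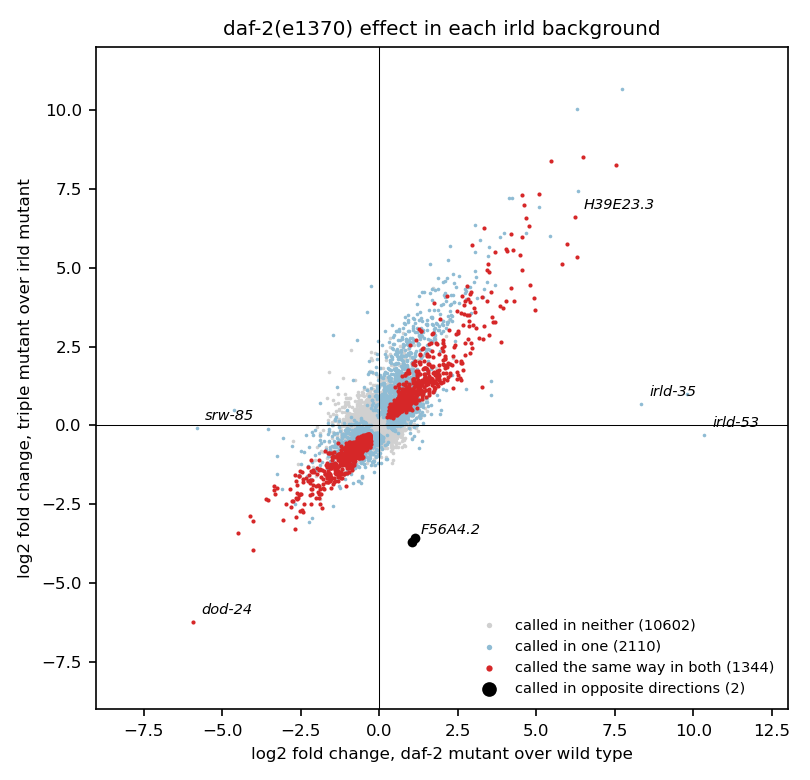
Each point is a tested gene, with the log2 fold change of the daf-2 mutant against wild type on the x axis and of the triple mutant against the irld mutant on the y axis. Red marks the 1344 genes called the same way in both and black the 2 called in opposite directions. Most coloured points lie in the lower left and upper right, and srw-85, irld-35 and irld-53 lie along the x axis.

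The test of the difference itself, the interaction of both genotypes, called 9 genes (0.064%), with 844 at an unadjusted p under 0.05. DESeq2 called 22. Of the 9, 8 lie on chromosome V, and 6 of these between positions 2348215 and 2531174. In these genes the pooled value does not stand for all carriers of the allele. The irld family genes irld-35 and irld-53 were at 29.9 ± 5.52 and 32.1 ± 5.22 CPM in the daf-2 mutant (SD, n = 4), and at 0.207 ± 0.048 and 0.0968 ± 0.098 CPM in the triple mutant, which carries the same daf-2 allele. In wild type and the irld mutant both were at most at 0.138 CPM on average. Their pooled log2 fold changes of 6.62 and 7.04 (adjusted p = 1.50e-05 and 1.00e-04) thus come from the CB1370 libraries.

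The reverse was seen in srw-85, a chemoreceptor-like gene, at 2.19 ± 0.704 CPM in the daf-2 mutant, against 122 ± 42.8 in wild type, 134 ± 7.11 in the triple mutant and 143 ± 11.8 in the irld mutant (SD, n = 4 each). It was called lower in the pooled fit (-2.62 ± 0.93, adjusted p = 0.0443), and that call was lost in 14 of 30 alternatives. F56A4.2 and the C-type lectin gene clec-209 were the 2 genes called in opposite directions, higher in the daf-2 mutant than in wild type (1.04 ± 0.26 and 1.14 ± 0.25) and lower in the triple mutant than in the irld mutant (-3.71 ± 0.31 and -3.58 ± 0.30). In the pooled fit neither was called (adjusted p = 0.323 and 0.365), while with the 4 groups in the model both were called lower, at -1.33 and -1.22 on the log2 scale. F56A4.2 and clec-209, and irld-35 and irld-53, have gene models of equal length in 2 stretches that lie side by side in the same order, as do C13B7.6 and Y45G12C.16. Reads may have been split between such copies, and the value of each single gene is uncertain. Y45G12C.16, on the same stretch, stood at 13.6 ± 0.450 CPM in the daf-2 mutant and 5.19 ± 0.552, 6.13 ± 0.627 and 6.47 ± 0.572 CPM in wild type, the irld mutant and the triple mutant. Its call in the pooled fit (0.74 ± 0.18, adjusted p = 0.00504) therefore also rests on 1 strain.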

How the data were processed

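The authors deposited unscaled counts per gene for each of the 16 libraries. The submitters' processing notes name Bowtie 1.2.2 and HTSeq 0.11.2, and the strand setting is not given in the sources used here, so overlapping antisense genes cannot be told apart. Reads without a gene (40.4% to 42.4% of a library) were left out. Ensembl 115 (WBcel235) gave names and coordinates for 46857 of 46911 gene identifiers.

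Genes that reached 1 CPM in 4 or more libraries were tested with edgeR 4.0.16 (R 4.3.3, limma 3.58.1), by robust quasi-likelihood F tests with TMM factors. The pooled model held daf-2 and irld status, and a model of the 4 groups gave each irld background and the interaction. Each adjusted p is by Benjamini-Hochberg over all genes tested, with calls under 0.05. CPM use TMM-scaled library sizes and log2 CPM a prior count of 2. Standard errors divide the log2 fold change by the root of F. The steps were tested on simulated data.

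The comparison, the 50 gene lists and the rules were chosen with earlier results of these data known. Named by rule were the alleles' genes, the 14 largest changes in each direction (mean of at least 5 CPM, no overlap), the 6 smallest adjusted p, up to 3 per list, 7 genes known from daf-2 studies, genes of the interaction, genes called only when pooled, and tissue markers. Chosen after their values were seen were icl-1, mtl-2, gst-4 and dpy-5. Alternatives were DESeq2 1.42.0, other scalings, filters and model terms, and leaving out each library or line.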

Additional observations from a re-analysis of the deposited data

Results flagged for a closer look

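The daf-2 effect differed between the irld backgrounds in 6 of the genes named. The log2 difference, with minus without the irld alleles, was 5.72 in srw-85, -4.75 in F56A4.2, -4.72 in clec-209, -7.66 in irld-35, -10.7 in irld-53 and -1.31 in Y45G12C.16, each called by edgeR's interaction test.

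In 27 of 282 series of log2 CPM of the named genes, a single library stood apart from the 7 others with or without daf-2(e1370). Chance gives about 1 in 20 for independent series of 1 population. Here each set mixes genotypes and the genes share their libraries, so the number that chance would give is not known. The measure is the gap to the nearest library over the range of the 8; values past Dixon's 95% critical value for 8 are given. Wild-type replicate 3 was apart 9 times: lowest in blmp-1 (0.536), daf-16 (0.552), elt-1 (0.598), epg-9 (0.598), lin-26 (0.594) and myo-3 (0.618), and highest in mtl-2 (0.691), spp-2 (0.583) and spp-6 (0.71). Wild-type replicate 2 was highest in ins-17 (0.586) and ins-27 (0.553) and lowest in nas-6 (0.733) and srw-85 (0.81). Wild-type replicate 1 was lowest in acox-1.4 (0.543).

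The irld mutant replicate 3 was lowest in col-166 (0.544), dao-3 (0.697) and grd-10 (0.649), and replicate 2 lowest in daf-28 (0.576). With the allele, daf-2 mutant replicate 3 was highest in col-124 (0.553), csq-1 (0.553), ins-17 (0.604) and pdi-3 (0.747). LRB458 replicate 1 was highest in F19C7.2 (0.576) and lowest in cyp-33C1 (0.567), hsp-12.6 (0.55) and lipl-4 (0.636), and LRB457 replicate 3 was lowest in gst-22 (0.546).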

How the results depend on the processing

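With edgeR's test against a 1.5-fold change, 562 genes were called higher and 321 lower. In the other alternatives the pooled counts stayed within 1.5 times of 2232 and 2124, the lowest without the LRB457 line (1765 higher, 1585 lower). Leaving out 1 library at a time gave 1960 to 2528 higher and 1852 to 2284 lower, 1524 to 2215 calls without the irld alleles and 1892 to 3147 with them. The interaction called 5 to 15 genes in these fits (5 without daf-2 mutant replicate 3 or replicate 4, 15 without wild-type replicate 4) and 22 with DESeq2. Library sizes of all reads moved the median log2 fold change of all genes from -0.006 to 0.048. No call of the pooled effect turned to the opposite direction in an alternative. Of the values of named genes, 4138 kept their side of the threshold, 78 lost the call (17 of them mtl-1, 14 srw-85, 7 elt-2) and 4 gained one (daf-2, daf-16, F56A4.2, clec-209).

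With the replicate number as a block, 2107 genes were called higher and 1895 lower. Neuropeptide genes called lower went from 18 to 9, proteasome genes called higher from 6 to 2 and irld family genes called lower from 4 to 2 under this replicate block. The numbers are not stated to pair libraries. Deviations of same-numbered libraries correlated at a median of 0.031 (24 pairs, 9 over 0.1). For libraries of different numbers the median was -0.013 (72 pairs, 18 over 0.1). Of 16 libraries, 8 correlated best with their own number, and a pairing was not tested. Depth limits genes under 1 CPM, irld-39, irld-52 and ins-7 among them.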
